A study of Mus musculus with 12 samples.

Results

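The genes described here encode the subunits of the proteasome. They are the 36 entries of the deposited expression table, of 19439 in all, that are named Psma, Psmb, Psmc or Psmd followed by a number, leaving out the immunoproteasome genes Psmb8, Psmb9 and Psmb10. The core particle is represented by 16 of them and the regulatory particle by 20. RNA sequencing had been done on 12 samples of 3T3 mouse embryonic fibroblasts, an immortalised connective tissue cell line, in 4 groups of 3. The groups were p53-null cells without glutamine, p53-null cells in complete medium, cells with wildtype p53 (WT) without glutamine and WT cells in complete medium. All groups had been grown in DMEM with 25 mM glucose and then kept for 18 h in DMEM that either lacked L-glutamine or held 2 mM of it. Each genotype was represented by 1 cell line, so a difference between genotypes and any other difference between these lines cannot be told apart. Nothing in the labels says that the 3 samples of a group were separate cultures; p-values cover the spread between these samples, which may be technical.

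The proteasome degrades proteins that carry ubiquitin chains. Its core particle is a barrel in which rings of alpha subunits (Psma genes) form the gate, and rings of beta subunits (Psmb genes) hold the proteolytic sites. The regulatory particle caps the barrel: a ring of ATPases (Psmc genes) unfolds the substrate and opens the gate, while the remaining subunits (most Psmd genes) bind, position and deubiquitinate it. The subunits assemble in fixed proportions with the help of dedicated chaperones, and in mammals the transcription factor Nfe2l1 raises their genes together when proteasome activity falls short. Fibroblasts use the constitutive form, and interferon signalling replaces its catalytic subunits with the immunoproteasome forms.

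Levels are in RPKM, reads per kilobase of gene scaled to the mapped reads of each library. Being per length, they allow a rough comparison between genes. It is limited because the annotation and the counting of reads shared between genes are not stated. Changes are log2 differences of RPKM + 1, with the standard error (SE) of a limma fit of the 4 group means over all genes that reached 1 RPKM in 3 or more of the 12 samples. A gene was called at a Benjamini-Hochberg adjusted p under 0.05 over the 11461 genes tested. Since most genes passed that test in every comparison, members changed by at least 1.5-fold on this scale were also counted, a rule added after the data were seen. The fit tested 34 of the 36 members. The testis-specific alpha subunit Psma8 was listed at 0 in 11 samples and at 0.0131 RPKM in 1 p53-null sample without glutamine. Psmb11, the thymus-specific beta subunit, stayed at or under 0.0366 RPKM in every sample. Both were below the filter, which left 14 core members and all 20 regulatory members.

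The RPKM sums of the 12 libraries lay between 284426 and 319735. Trp53 averaged 34.6 ± 0.61 RPKM in p53-null and 112 ± 2.2 RPKM in WT samples without glutamine, and 28.8 ± 0.87 RPKM in p53-null and 58.5 ± 0.58 RPKM in WT samples in complete medium (SD, n = 3 each). It was therefore lower in both p53-null groups (log2 difference -1.66 without glutamine and -0.998 in complete medium), although reads of the gene remained. Of 12 fibroblast markers, 9 reached 1 RPKM in every group, and the list summed to 1432 to 1458 RPKM in p53-null samples without glutamine, 2503 to 2540 RPKM in p53-null samples in complete medium, 1028 to 1036 RPKM in WT samples without glutamine and 4125 to 4145 RPKM in WT samples in complete medium. Such sums weigh abundant genes most. Without glutamine, 4 of the 9 tested markers were higher in p53-null than in WT cells and 5 lower (median log2 difference -0.59). Among the 4 higher markers, Vim averaged 770 RPKM in p53-null and 72.4 RPKM in WT samples without glutamine. Among the 5 lower markers, S100a4 averaged 5.39 RPKM in p53-null and 131 RPKM in WT samples without glutamine. Col1a2, also lower, averaged 12.9 RPKM in p53-null and 87.4 RPKM in WT samples in that medium. Of all tested genes, 51.4% were higher and 40.0% lower. Of 5 epithelial markers, 2 reached 1 RPKM in both p53-null groups, where the list summed to 77.2 to 84.7 RPKM, and none did in WT samples, where it summed to at most 0.253 RPKM. Of 4 muscle and neural markers, 2 reached 1 RPKM in each group. In p53-null samples that list summed to 2.97 to 3.13 RPKM without glutamine and 2.71 to 2.88 RPKM in complete medium. In WT samples it summed to 19.01 to 19.25 RPKM without glutamine and 36.6 to 37.2 RPKM in complete medium. The part of these marker differences in the results below was not tested. In bulk samples, fewer cells of a type and less RNA per cell cannot be told apart.

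In WT cells without glutamine, the ATPase genes Psmc2, Psmc5 and Psmc4 had the largest rises among the members, Psmd1 the largest fall and Psmb6 the largest fall in the core. Their promoters are shown because these members define the pattern that follows. The sequences run 5′ to 3′ along the gene's strand, over the 250 bases before and the 50 bases after the start in RefSeq's annotation of GRCm38.p6. Capitals mark a match to either of 2 motifs searched on both strands, TGACNNNGC, which resembles the antioxidant response element that Nfe2l1 binds, and CCAAT, the box bound by NF-Y. The windows are chr5:21785025-21785324 on the plus strand for Psmc2 (the upstream of its annotated starts), chr11:106255935-106256234 on the plus strand for Psmc5, chr7:28050043-28050342 on the minus strand for Psmc4, chr1:86064369-86064668 on the plus strand for Psmd1 and chr11:70525107-70525406 on the plus strand for Psmb6.
Psmc2: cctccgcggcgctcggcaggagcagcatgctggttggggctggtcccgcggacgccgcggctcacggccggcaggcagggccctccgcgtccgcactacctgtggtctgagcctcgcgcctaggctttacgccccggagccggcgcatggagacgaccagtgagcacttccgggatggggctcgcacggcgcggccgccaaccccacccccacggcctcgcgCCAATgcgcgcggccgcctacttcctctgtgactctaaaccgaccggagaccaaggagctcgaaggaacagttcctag
Psmc5: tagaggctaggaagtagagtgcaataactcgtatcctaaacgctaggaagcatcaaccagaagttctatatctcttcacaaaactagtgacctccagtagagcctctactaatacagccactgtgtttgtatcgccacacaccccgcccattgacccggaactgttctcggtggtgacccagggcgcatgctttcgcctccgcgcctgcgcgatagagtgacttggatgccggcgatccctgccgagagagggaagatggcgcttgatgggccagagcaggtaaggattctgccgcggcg
Psmc4: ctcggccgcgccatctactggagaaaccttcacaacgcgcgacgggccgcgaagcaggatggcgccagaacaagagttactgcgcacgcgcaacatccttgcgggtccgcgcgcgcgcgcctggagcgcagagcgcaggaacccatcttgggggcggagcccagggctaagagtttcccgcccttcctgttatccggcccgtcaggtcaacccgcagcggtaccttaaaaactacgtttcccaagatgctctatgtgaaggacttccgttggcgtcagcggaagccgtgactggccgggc
Psmd1: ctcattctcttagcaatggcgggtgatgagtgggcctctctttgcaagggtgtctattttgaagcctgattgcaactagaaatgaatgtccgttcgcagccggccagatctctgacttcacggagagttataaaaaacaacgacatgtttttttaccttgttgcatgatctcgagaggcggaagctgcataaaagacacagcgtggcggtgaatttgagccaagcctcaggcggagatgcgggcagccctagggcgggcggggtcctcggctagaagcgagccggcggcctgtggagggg
Psmb6: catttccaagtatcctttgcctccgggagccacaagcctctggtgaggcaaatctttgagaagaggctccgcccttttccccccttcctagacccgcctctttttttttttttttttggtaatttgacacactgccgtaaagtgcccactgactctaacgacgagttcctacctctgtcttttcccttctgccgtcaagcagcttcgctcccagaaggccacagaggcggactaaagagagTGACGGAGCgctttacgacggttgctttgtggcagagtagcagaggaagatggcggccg

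The Psmc2 window held a CCAAT match that begins at position -28 from the start, and the Psmb6 window a TGACNNNGC match at position -9. Psmc5, Psmc4 and Psmd1 held neither in these windows, so no motif searched was shared by the 3 ATPase genes. RefSeq gave 31 promoters for 29 of the 36 members. TGACNNNGC was found in 12.4% of 32851 mouse promoters of the same length, in 2 of 13 core promoters (Psmb5 and Psmb6) and in 3 of 18 regulatory promoters (Psmc6, Psmd12 and Psmd9). CCAAT was found in 37.4% of all promoters, in 7 of 13 core promoters and in 5 of 18 regulatory promoters. The heat shock core GAANNTTC (7.86% of all promoters), TGATGNAA, which resembles the amino acid response element (3.97%), and the E box CACGTG (7.15%) were each in at most 1 promoter of either particle. These motifs may overlap each other, no printed window held overlapping matches, and a match is a description of the letters only. The 36 genes lie on 16 chromosomes in GENCODE M21 (GRCm38).

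The first comparison was of glutamine-free with complete medium in WT cells. Transcripts of the ATPase ring rose in WT cells without glutamine, while the core particle moved little on average and in both directions. Most of the other stable regulatory subunits fell, and their mean fell slightly. The mean over the 6 ATPase genes was 114, 114 and 113 RPKM in WT samples without glutamine, against 63.5, 63.1 and 63.2 RPKM in WT samples in complete medium. Over the 14 core genes the mean was 97.2, 99.8 and 99.8 RPKM without glutamine, against 102, 102 and 102 RPKM in complete medium. The 11 other stable regulatory subunits averaged 63.6 ± 0.41 RPKM without glutamine and 69.8 ± 0.46 RPKM in complete medium (SD, n = 3 each). ATPase transcripts thus exceeded the rest of the regulatory particle per gene without glutamine (ratio of means 1.79 ± 0.018), but not in complete medium (0.906 ± 0.005).

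In the genome-wide fit, 5 of the 6 ATPase genes rose and 1 fell in WT cells without glutamine, with a median log2 change of 0.89 beside 0.011 over all genes tested. Of the 20 regulatory members 10 rose and 10 fell (median 0.014), and of the 14 core members 5 rose, 7 fell and 2 did not pass the test (median -0.085). These counts stand against a background of 46.0% of all tested genes higher and 44.0% lower, so the number of calls was near the background. At 1.5-fold or more, 5 of 20 regulatory members rose (Psmc2, Psmc4, Psmc5, Psmc6 and Psmd14) and 1 fell (Psmd1), and in the core none of 14 rose and 1 fell (Psmb6), against 21.8% of all tested genes higher and 23.0% lower. For comparison, 2 other complexes of many subunits had medians of 0.25 (cytosolic chaperonin, 8 genes) and 0.23 (COP9 signalosome, 9 genes), and 74 cytosolic ribosomal protein genes one of 0.065.

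**Figure D1:**
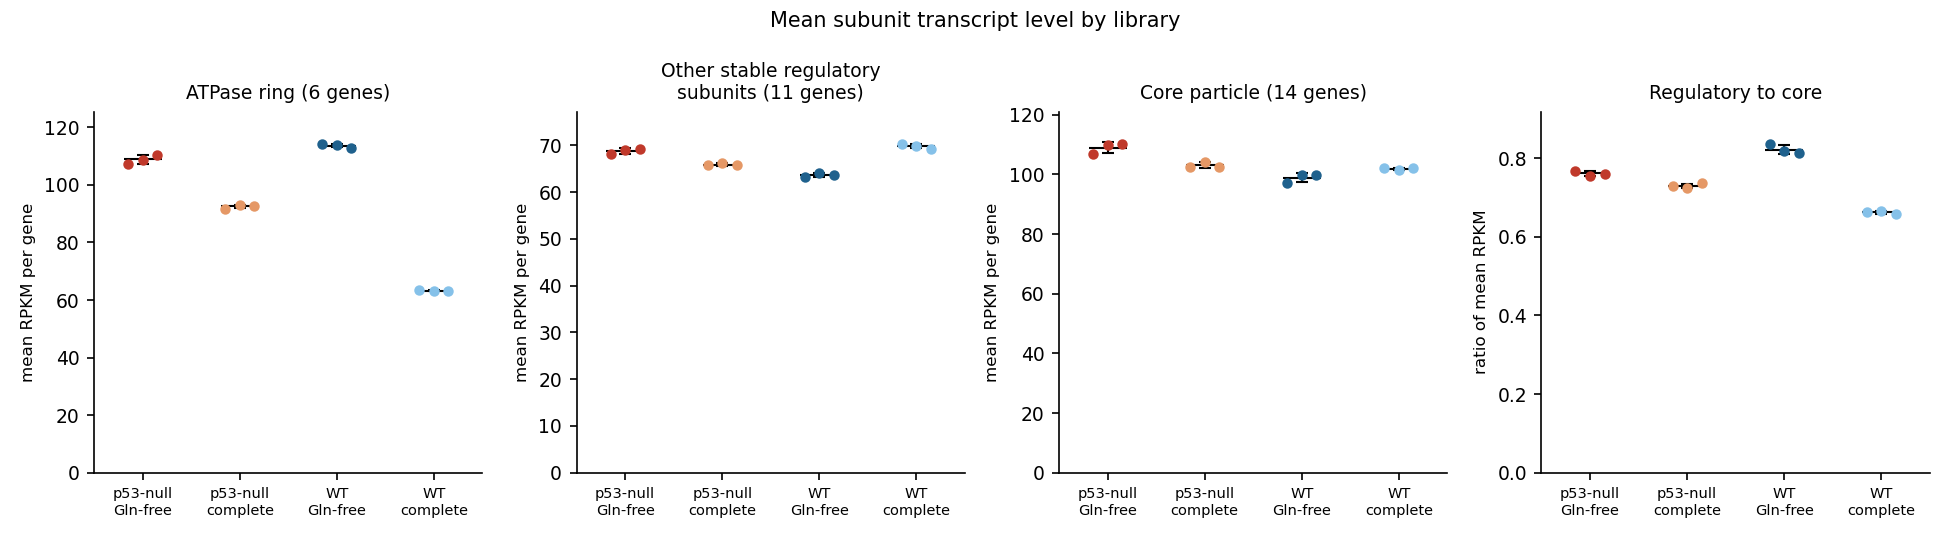
Mean RPKM per gene over the ATPase ring, the other stable regulatory subunits and the core particle, and the ratio of the regulatory to the core mean, in each library (points; bars are mean and SD of 3; Gln-free is the medium without glutamine). The ATPase ring separates the groups most, with a group mean of 63.3 RPKM in WT cells in complete medium and of 92.5 RPKM or more in the other groups, while the group means of the core stay between 98.9 and 109 RPKM.

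Psmc2 had 174, 171 and 172 RPKM in WT samples without glutamine, against 66.9, 66.7 and 65.5 RPKM in WT samples in complete medium, a 2.59-fold rise (log2 change 1.36 ± 0.016 SE, adjusted p = 1.4e-16). Psmc5 had 142, 145 and 141 RPKM without glutamine, against 62.1, 61.7 and 63.5 RPKM in complete medium, a 2.28-fold rise (1.18 ± 0.019, adjusted p = 2.9e-15). Psmc4 had 56.0, 55.9 and 55.3 RPKM without glutamine, against 25.6, 26.0 and 25.5 RPKM in complete medium, a 2.17-fold rise (1.09 ± 0.015, adjusted p = 5.7e-16). All 3 genes were high in every WT sample without glutamine, with no overlap. Psmc6 rose 1.62-fold (0.69 ± 0.015) and Psmc1 1.42-fold (0.50 ± 0.015); 2 genes nearly identical to Psmc1 may share its reads. Psmc3 stood apart: it had 55.7, 56.2 and 55.7 RPKM without glutamine, against 59.9, 59.0 and 59.8 RPKM in complete medium, a fall to 0.939 of the complete level (-0.09 ± 0.019, adjusted p = 6.7e-04).

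**Figure D2:**
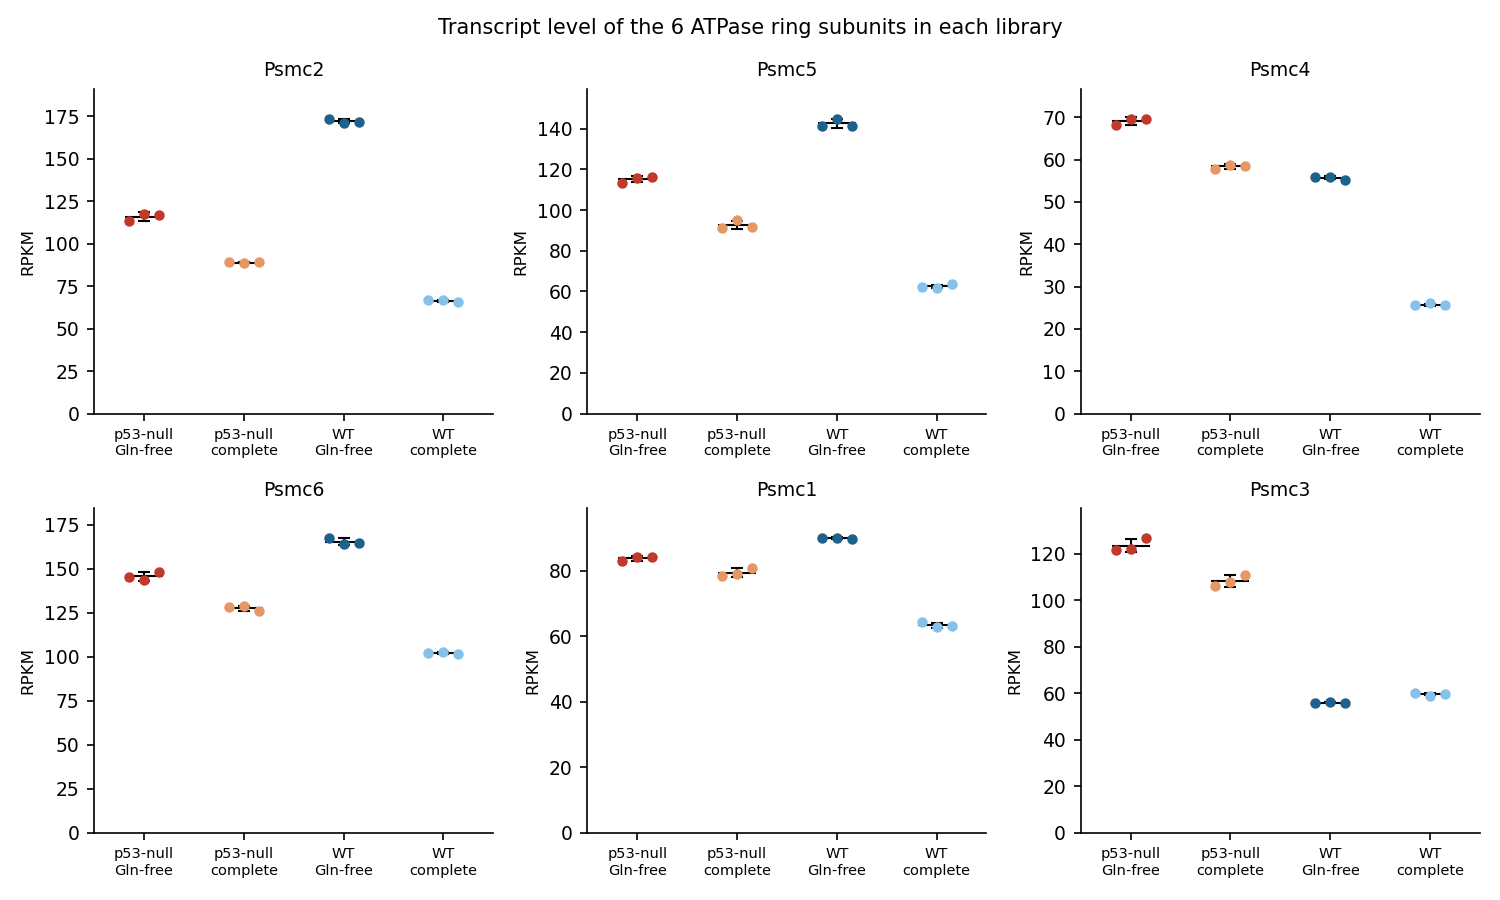
RPKM of the 6 genes of the ATPase ring in each library (points; bars are mean and SD of 3; Gln-free is the medium without glutamine). Psmc2, Psmc5, Psmc4, Psmc6 and Psmc1 are lowest in WT cells in complete medium. Psmc3 is low in WT cells without and with glutamine, at means of 55.9 and 59.6 RPKM. It is higher in p53-null cells without and with it, at means of 123 and 108 RPKM.

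Among the other regulatory subunits, 3 of 11 rose and 8 fell in WT cells without glutamine, with a median of -0.30. Of all tested genes, 46.0% were higher and 44.0% lower. Psmd14, the zinc-dependent deubiquitinase that removes the ubiquitin chain, rose to 100.4, 96.8 and 94.1 RPKM, against 65.2, 64.3 and 61.5 RPKM in complete medium (1.53-fold, log2 change 0.60 ± 0.024, adjusted p = 3.0e-11). It was the only one of the 11 past 1.5-fold upwards; Psmd7, its catalytically inactive partner, rose by 0.25 ± 0.017 and Psmd12, a lid subunit, by 0.11 ± 0.019. Psmd1, the large scaffold of the base, had 35.0, 35.0 and 34.7 RPKM without glutamine, against 67.9, 65.5 and 65.6 RPKM in complete medium, 0.526 of that level (-0.91 ± 0.016, adjusted p = 5.6e-15). The groups did not overlap for either gene.

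The ubiquitin receptor Psmd4 had 60.4, 63.4 and 62.7 RPKM in WT samples without glutamine, against 88.0, 87.7 and 86.3 RPKM in complete medium (log2 change -0.48 ± 0.018). The lid subunits Psmd13 (-0.50 ± 0.020), Psmd8 (-0.39 ± 0.021), Psmd3 (-0.31 ± 0.015), Psmd11 (-0.23 ± 0.019) and Psmd6 (-0.08 ± 0.025) and the second base scaffold Psmd2 (-0.30 ± 0.016) fell as well. Most of the transcript of Psmd2 (98.2%) and of Psmd11 (52.7%) matched another gene at 95% identity or more, so their values are uncertain. The 3 chaperones of ATPase assembly that carry Psmd names split, with Psmd9 (0.43 ± 0.027) and Psmd5 (0.38 ± 0.022) higher and Psmd10, gankyrin, slightly lower (-0.10 ± 0.033, adjusted p = 0.011) with overlapping samples, a call lost without sample 3 of the WT cells without glutamine. Of the exonic bases of Psmd9, 25.5% lie opposite another gene, and without strand its reads cannot be told apart from that gene's.

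In the core particle the changes of WT cells were smaller. Of the catalytic subunits, Psmb6, the caspase-like site, had 51.2, 52.4 and 51.2 RPKM in WT samples without glutamine, against 85.8, 85.5 and 85.1 RPKM in complete medium, 0.604 of that level (log2 change -0.72 ± 0.022, adjusted p = 2.2e-12). Psmb7, the trypsin-like site, had 137, 135 and 132 RPKM without glutamine, against 122, 121 and 122 RPKM in complete medium (0.15 ± 0.020, adjusted p = 1.1e-05). Psmb5, the chymotrypsin-like site, had 80.1, 85.2 and 84.5 RPKM without glutamine, against 76.1, 75.2 and 76.8 RPKM in complete medium (0.13 ± 0.022, adjusted p = 9.8e-05). Psmb6 thus fell while the other two rose slightly, none with overlapping samples; Psmb5 matched other genes over 88.4% of its transcript and is uncertain.

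The other beta subunits gave Psmb3 0.36 ± 0.032 and Psmb2 0.18 ± 0.022 higher, and Psmb4 -0.19 ± 0.024 and Psmb1 -0.12 ± 0.017 lower, in WT cells without glutamine. In the alpha ring 1 of 7 rose, 4 fell and 2 did not pass the test, beside 46.0% of all tested genes higher and 44.0% lower. The rise was that of Psma4, which had 111, 111 and 112 RPKM without glutamine, against 85.2, 86.1 and 86.8 RPKM in complete medium (0.37 ± 0.014, adjusted p = 1.8e-11). The falls were those of Psma5 (-0.47 ± 0.019), Psma1 (-0.26 ± 0.025), Psma2 (-0.25 ± 0.017) and Psma3 (-0.22 ± 0.021). Psma6 (-0.05 ± 0.028) and Psma7 (0.04 ± 0.018) did not pass. Over 50% of the transcript matched another gene for Psma4 (66.9%), Psma5 (76.5%), Psmb3 (80.7%) and Psmc1 (82%), so these values are uncertain, while Psmc2, Psmc4, Psmc5, Psmd1, Psmd14 and Psmb6 had no such match.

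In p53-null cells the response to the glutamine-free medium was small, and most members were slightly higher. Of the 20 regulatory members 17 rose, 2 fell and 1 did not pass the test, and of the 14 core members 9 rose, 3 fell and 2 did not pass, against 50.0% of all tested genes higher and 32.0% lower. The median log2 change was 0.16 in the regulatory particle, 0.22 in its ATPase ring and 0.085 in the core, beside 0.083 over all genes. When each sample was centred on its median, 10 regulatory members rose and 3 fell, 4 core members rose and 6 fell, and the core median was -0.021. Of the 31 members called by limma none changed by 1.5-fold, where 9.11% of all tested genes were higher and 7.08% lower by that much. All 6 ATPase genes rose, led by Psmc2 with 113, 117 and 117 RPKM in p53-null samples without glutamine, against 89.0, 88.6 and 88.9 RPKM in p53-null samples in complete medium (0.38 ± 0.016, adjusted p = 1.3e-10). Psmc5 (0.31 ± 0.019), Psmc4 (0.24 ± 0.015), Psmc6 (0.19 ± 0.015), Psmc3 (0.19 ± 0.019) and Psmc1 (0.08 ± 0.015) followed, and Psmc1 turned to -0.030 under median centring.

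The largest rise among the p53-null members was in the assembly chaperone Psmd9, with 14.9, 15.1 and 14.5 RPKM without glutamine, against 10.4, 10.04 and 9.94 RPKM in complete medium (0.51 ± 0.027, adjusted p = 1.3e-09). Psmd5 (0.39 ± 0.022) and Psmd10 (0.35 ± 0.033) rose with it. Psmd1 fell, as it did in WT cells, to 34.8, 35.3 and 35.0 RPKM without glutamine, against 47.5, 47.5 and 47.0 RPKM in complete medium (-0.42 ± 0.016, adjusted p = 4.1e-11). In the core, Psma6 had 97.7, 99.9 and 97.4 RPKM without glutamine, against 77.9, 83.2 and 80.02 RPKM in complete medium (0.29 ± 0.028), and Psma3 had 31.8, 32.3 and 33.3 RPKM without glutamine, against 40.2, 39.9 and 39.4 RPKM in complete medium (-0.29 ± 0.021). Psmb6 hardly differed, with 118, 127 and 123 RPKM without glutamine, against 128, 132 and 128 RPKM in complete medium (-0.08 ± 0.022, adjusted p = 0.0076). Psmb5 rose by 0.13 ± 0.022. Psmb7 (171, 173 and 177 RPKM without glutamine, 169, 172 and 164 RPKM in complete medium) and Psmd14 (87.5, 88.1 and 88.9 RPKM without glutamine, 86.1, 87.6 and 86.8 RPKM in complete medium) did not pass the test, and their groups overlapped.

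**Figure D3:**
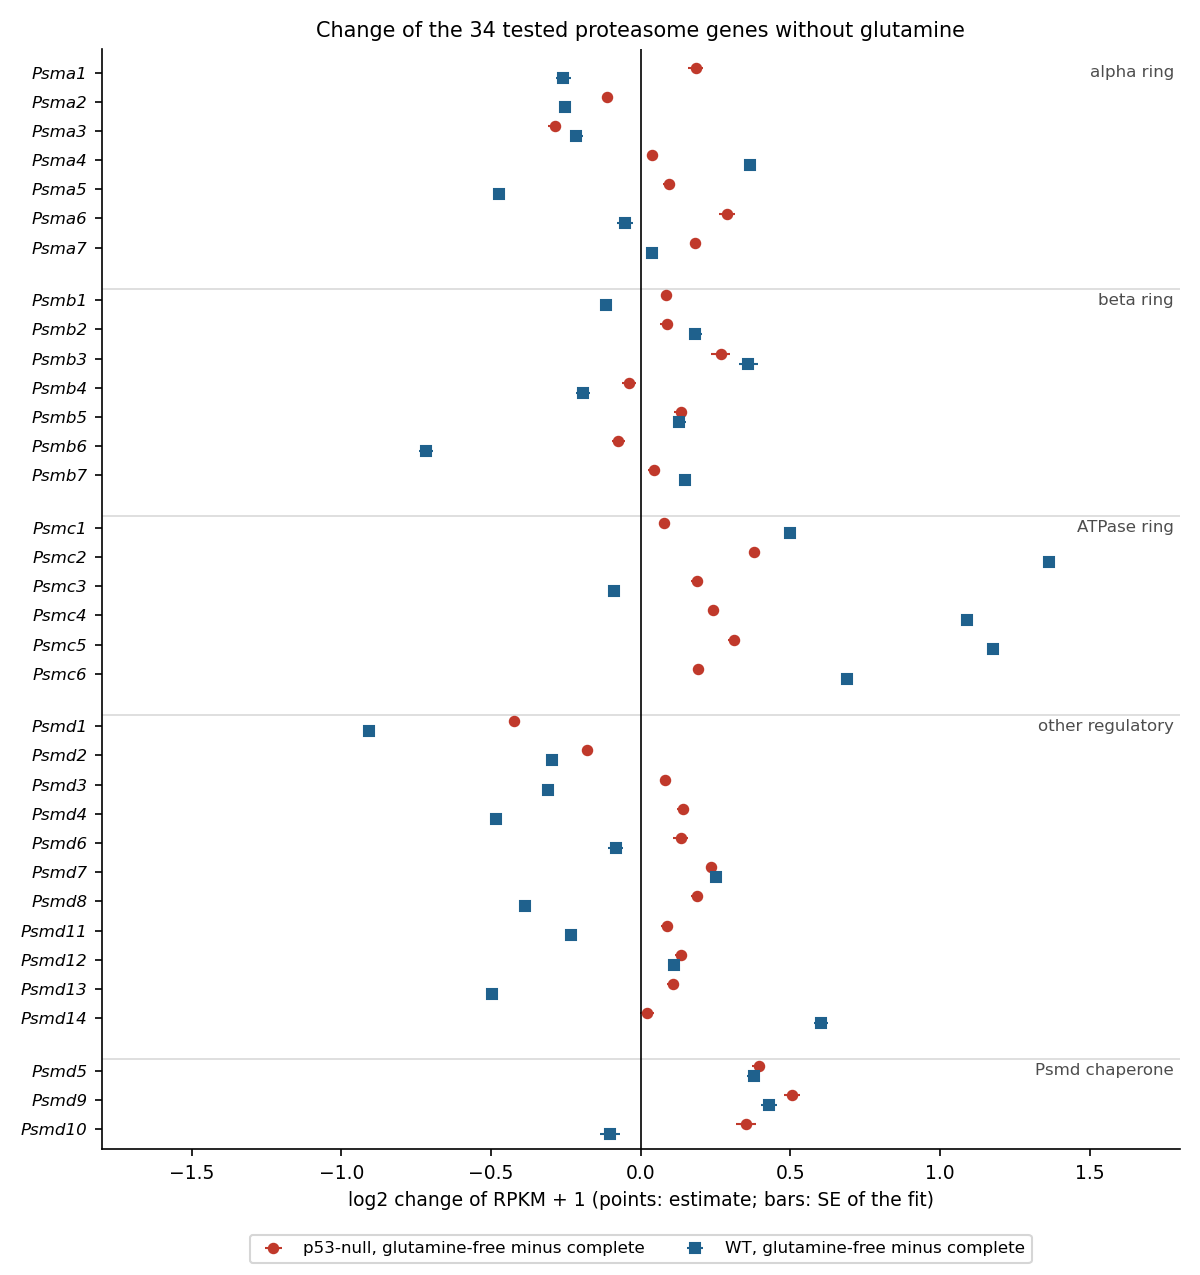
Log2 change of RPKM + 1 without glutamine, relative to complete medium, for the 34 tested members by subgroup, in p53-null cells (circles) and WT cells (squares), with the SE of the limma fit. In p53-null cells the changes stay between -0.42 and 0.51, while in WT cells 4 ATPase genes lie between 0.69 and 1.36 and Psmd1 at -0.91.

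The WT and p53-null medium comparisons share no samples. Of the core members, 4 rose and 3 fell in both lines, and 3 fell in WT but rose in p53-null cells. In the regulatory particle 9 rose and 2 fell in both lines, and 8 fell in WT but rose in p53-null cells. Of all tested genes, 34.4% rose in both lines, 23.0% fell in both, and 11.6% fell in WT but rose in p53-null cells. The counts of members depend on the scaling. Of the 11 other stable regulatory subunits, 8 rose and 2 fell in p53-null cells as deposited, but 2 rose and 3 fell under median centring. The difference of the responses, p53-null minus WT, was tested for each gene, against a background of 46.4% of tested genes with a more positive response in p53-null cells and 38.4% with a more negative one. Of the ATPase genes 5 of 6 had a more negative response in p53-null cells, that is, a smaller rise: Psmc2 (-0.98 ± 0.022, adjusted p = 3.5e-13), Psmc5 (-0.87 ± 0.027), Psmc4 (-0.85 ± 0.021), Psmc6 (-0.50 ± 0.021) and Psmc1 (-0.42 ± 0.021). Psmc3 had a more positive one (0.28 ± 0.027). Psmd14 was also more negative (-0.58 ± 0.034).

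Of the 11 other stable regulatory subunits, 8 had a more positive response in p53-null cells, 1 a more negative one and 2 did not pass. Of all tested genes, 46.4% were more positive and 38.4% more negative. The differences were 0.62 ± 0.026 for Psmd4, which had 88.9, 90.5 and 90.1 RPKM in p53-null samples without glutamine, against 82.8, 81.1 and 80.5 RPKM in p53-null samples in complete medium, 0.60 ± 0.028 for Psmd13, 0.57 ± 0.030 for Psmd8 and 0.48 ± 0.022 for Psmd1. They were smaller for Psmd3 (0.39 ± 0.022), Psmd11 (0.32 ± 0.027), Psmd6 (0.22 ± 0.036) and Psmd2 (0.12 ± 0.022). Of the chaperones only Psmd10 passed (0.45 ± 0.047). Of the core members, 8 had a more positive response in p53-null cells, 4 a more negative one and 2 did not pass; the split was 5 to 6 under median centring, 11 to 3 under quantile normalization and 8 to 1 with one RPKM sum. Over all 20 regulatory members it was 10 to 6, and 9 to 9 under median centring.

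The widest core differences were those of Psmb6 (0.64 ± 0.032, adjusted p = 5.8e-10), Psma5 (0.57 ± 0.027) and Psma1 (0.44 ± 0.035) in the positive direction, and that of Psma4 in the negative (-0.33 ± 0.020, adjusted p = 4.4e-09). Psma4 had 101, 104 and 103 RPKM in p53-null samples without glutamine, against 99.7, 101 and 99.3 RPKM in p53-null samples in complete medium. Psma6 (0.34 ± 0.039), Psmb1 (0.20 ± 0.024), Psmb4 (0.15 ± 0.033), Psma7 (0.14 ± 0.026) and Psma2 (0.14 ± 0.024) were more positive, and Psmb2 (-0.10 ± 0.031) and Psma3 (-0.07 ± 0.030) more negative. The call of Psma3 was lost when any of 8 of the 12 samples was left out. Psmb7 was more negative (-0.10 ± 0.028), and turned to 0.10 under quantile normalization. The difference did not pass the test for Psmb3, Psmb5, Psmd5, Psmd7, Psmd9 and Psmd12, with estimates from -0.09 (Psmb3) to 0.08 (Psmd9), which does not show that these genes responded alike.

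Between the lines in complete medium, p53-null cells had more ATPase transcript than WT cells, 91.8, 93.0 and 92.9 RPKM per gene, against 63.5, 63.1 and 63.2 RPKM. All 6 ATPase genes were higher in p53-null cells (median log2 difference 0.49), and 11 of 20 regulatory and 9 of 14 core members were higher, 8 and 5 lower, with medians of 0.12 and 0.14 beside 0.053 over all genes. The background was 48.4% of tested genes higher and 42.5% lower; with libraries scaled to one RPKM sum, 12 regulatory members were higher and 5 lower. At 1.5-fold or more, 3 core members were higher and 1 lower (2 lower without p53-null sample 2, and 1 higher and 2 lower under median centring) and 3 regulatory members were higher and 2 lower (1 lower under quantile normalization and 0 with one RPKM sum), against 21.7% of all tested genes higher and 20.6% lower. Psmc4 had 57.8, 58.8 and 58.6 RPKM in p53-null samples, against 25.6, 26.0 and 25.5 RPKM in WT samples in complete medium (2.27-fold, 1.15 ± 0.015, adjusted p = 3.5e-16). Psmc3 was 1.82-fold higher (0.85 ± 0.019) and Psmd13 1.70-fold higher (0.74 ± 0.020).

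The core difference that stood farthest from 0 in complete medium was that of Psmb2, a structural beta subunit, with 59.9, 60.3 and 58.4 RPKM in p53-null samples, against 141, 145 and 144 RPKM in WT samples (0.415 of the WT level, -1.25 ± 0.022, adjusted p = 6.5e-15). Psmb3 had 138, 140 and 143 RPKM in p53-null samples, against 90.9, 90.1 and 90.7 RPKM in WT samples (0.63 ± 0.032), and Psma7 was 1.54-fold higher (0.61 ± 0.018). The catalytic Psmb6 was 1.51-fold higher in p53-null cells (0.59 ± 0.022) and Psmb7 1.39-fold (0.47 ± 0.020), while Psmb5 differed by 0.10 ± 0.022. Psmd10 had 14.6, 14.9 and 14.2 RPKM in p53-null samples, against 23.4, 24.6 and 23.9 RPKM in WT samples (-0.68 ± 0.033, adjusted p = 2.6e-10). Psmd2 (-0.61 ± 0.016), Psma5 (-0.57 ± 0.019) and Psmd1 (-0.48 ± 0.016) were lower too, and Psmd14 was higher (0.44 ± 0.024).

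Without glutamine the lines differed partly in the same members, with Psmb2, Psmb6, Psma7, Psmc3 and Psmd13 on the same side as in complete medium. Others, such as Psmc2 and Psmc5, changed side. Of the 20 regulatory members 10 were higher in p53-null cells, 9 lower and 1 did not pass, and of the 14 core members 9 were higher, 4 lower and 1 did not pass. The background was 51.4% of tested genes higher and 40.0% lower, and the medians were 0.035 and 0.11 beside 0.10 over all genes. That all-gene median was 0.23 when libraries were scaled to one RPKM sum and -0.03 when centred on their medians; under centring the core had 6 members higher and 6 lower and a median of -0.028, and the regulatory particle 9 higher and 11 lower and a median of -0.10. With one RPKM sum 11 core members were higher and 3 lower, and 12 regulatory members were higher and 5 lower. At 1.5-fold or more, 3 core and 3 regulatory members were higher and 1 core member was lower (6 core and 5 regulatory members higher under quantile normalization, 5 regulatory members higher with one RPKM sum, and 2 regulatory members lower under median centring), against 24.2% of all tested genes higher and 17.2% lower. The ATPase ring was split, with 2 genes higher and 4 lower in p53-null cells, and its median of -0.14 turned to 0.045 under quantile normalization and to 0.0073 with one RPKM sum.

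Psmb6 had 118, 127 and 123 RPKM in p53-null samples without glutamine, against 51.2, 52.4 and 51.2 RPKM in WT samples without glutamine (2.37-fold, 1.23 ± 0.022, adjusted p = 1.3e-14). Psmd13 had 46.6, 46.6 and 44.7 RPKM in p53-null samples, against 17.6, 17.7 and 17.2 RPKM in WT samples (2.62-fold, 1.34 ± 0.020, adjusted p = 1.6e-15), and Psmc3 was 2.21-fold higher (1.13 ± 0.019). Psmb2 had 61.2, 65.4 and 63.3 RPKM in p53-null samples, against 161, 165 and 163 RPKM in WT samples (0.389 of the WT level, -1.35 ± 0.022). Psmb2 was thus low in all 6 p53-null samples, in both media.

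Psmc2 was lower in p53-null cells in this medium, at 113, 117 and 117 RPKM against 174, 171 and 172 RPKM in WT samples (-0.57 ± 0.016, adjusted p = 7.6e-13), while in complete medium it was higher (0.42 ± 0.016). Psmc5 likewise was lower without glutamine (-0.30 ± 0.019) and higher in complete medium (0.56 ± 0.019). Psmc6 (-0.18 ± 0.015), Psmc1 (-0.10 ± 0.015) and Psmd14 (-0.14 ± 0.024) were lower without glutamine as deposited, but turned to 0.0094, 0.080 and 0.044 under quantile normalization. Psmc4 remained higher (0.31 ± 0.015). Psma7 (0.76 ± 0.018) and Psmb7 (0.36 ± 0.020) were higher, and Psmb5 (0.11 ± 0.022) turned to -0.029 under median centring. Psma5 and Psmd1, both lower in p53-null cells in complete medium, did not pass the test here (log2 differences of -0.0041 ± 0.019 and 0.0044 ± 0.016). Over both media, 8 core members were higher and 3 lower in p53-null cells in each, and 6 regulatory members were higher and 4 lower in each, against 35.8% of all tested genes higher and 27.8% lower in both media.

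**Figure D4:**
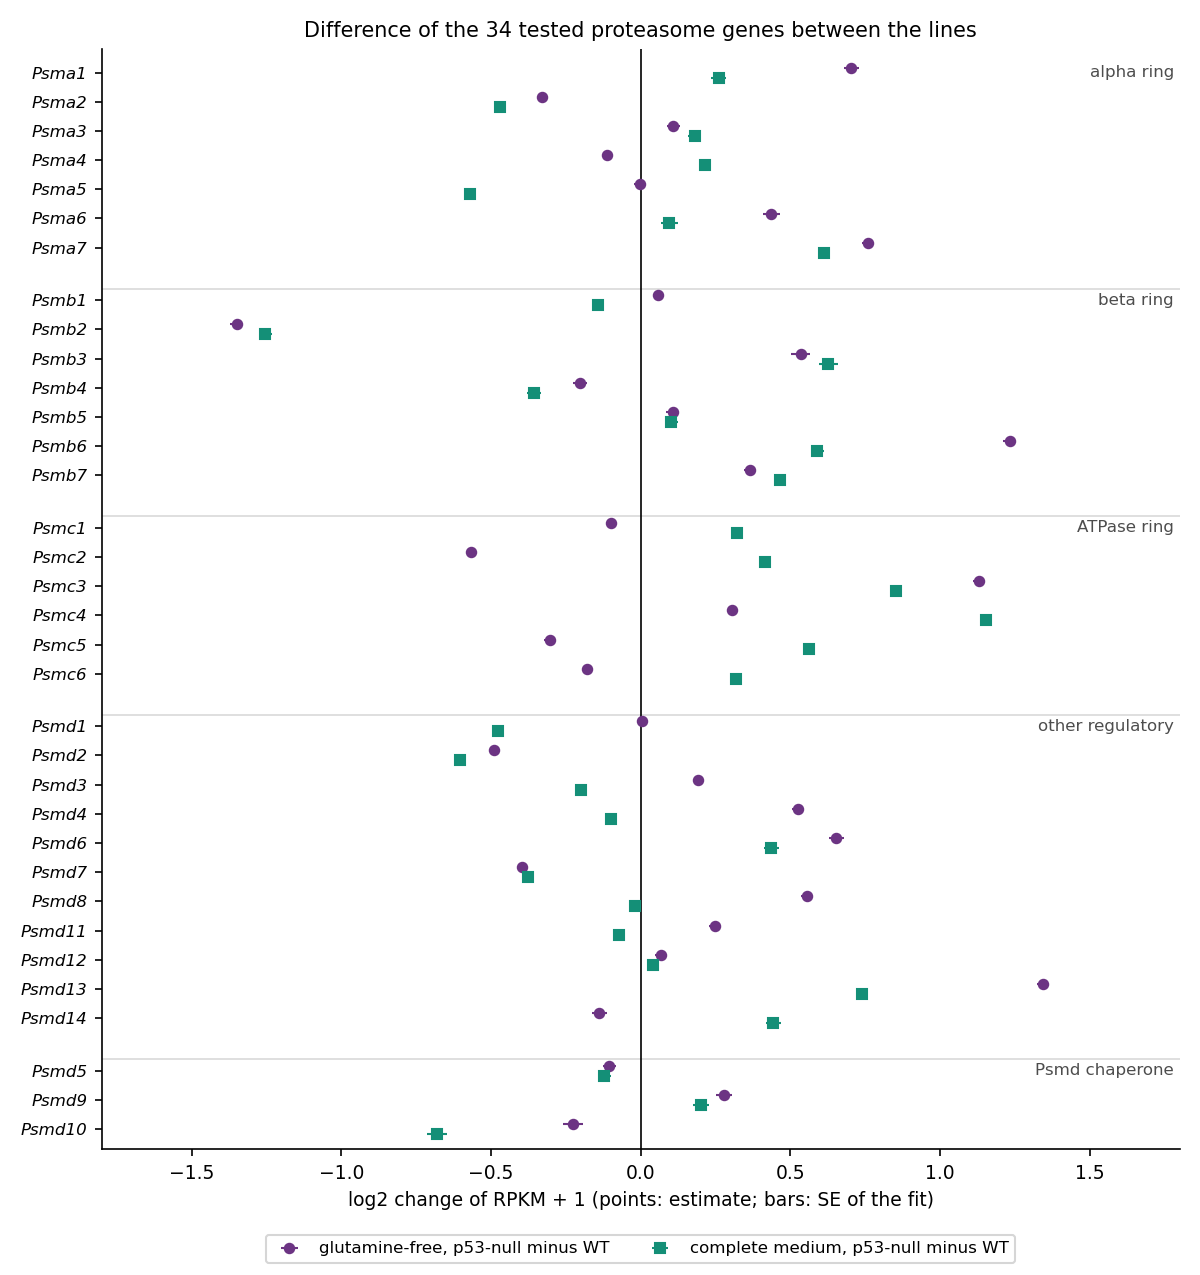
Log2 difference of RPKM + 1, p53-null minus WT, for the 34 tested members by subgroup, in glutamine-free medium (circles) and complete medium (squares), with the SE of the limma fit. Psmb2 lies near -1.3 in both media, while Psmc2 and Psmc5 lie below 0 in glutamine-free and above 0 in complete medium.

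Taken as ratios, the balance between the particles differed between the groups. The mean RPKM of the 17 stable regulatory subunits was 0.768, 0.756 and 0.761 of that of the 14 core subunits in p53-null samples without glutamine and 0.730, 0.725 and 0.736 in p53-null samples in complete medium. It was 0.835, 0.817 and 0.813 in WT samples without glutamine, against 0.664, 0.665 and 0.658 in WT samples in complete medium. The ratio was higher in every sample without glutamine than in any sample of the same line in complete medium. Most of the shift lay in the ATPase ring: its ratio to the core was 0.9995 ± 0.008 and 0.898 ± 0.008 in p53-null cells without and with glutamine and 1.15 ± 0.022 and 0.621 ± 0.002 in WT cells without and with it, while the ratio of the other regulatory subunits to the core stayed between 0.632 and 0.685 in all groups (SD, n = 3 each). The name rule leaves the regulatory subunits Adrm1 and Sem1 out of all these means, and ratios that include them were not computed. The mean RPKM of the beta genes was 1.56 ± 0.009 and 1.57 ± 0.018 times that of the alpha genes in p53-null cells without and with glutamine. In WT cells it was 1.68 ± 0.021 and 1.57 ± 0.005 times that of the alpha genes without and with glutamine.

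The subunits of one complex did not have equal transcript levels, and the spread among them differed between groups. The coefficient of variation over the 17 stable regulatory genes was 34.9 ± 0.63% in p53-null samples without glutamine, 29.7 ± 0.22% in p53-null samples in complete medium, 56.5 ± 0.71% in WT samples without glutamine and 37.9 ± 0.17% in WT samples in complete medium (SD, n = 3 each). Over the 14 core genes it was 41.2 ± 0.47%, 40.0 ± 0.47%, 45.8 ± 0.17% and 42.9 ± 0.25% in the same groups. In WT cells without glutamine the most abundant of the 17 stable regulatory transcripts, Psmc2, stood 9.83 ± 0.15 times above the least abundant, Psmd13. The same ratio of highest to lowest was 5.07 ± 0.081 in WT cells in complete medium. Psmb1, a structural beta subunit, was the most abundant core transcript in all 4 groups, at 192, 182, 185 and 201 RPKM in p53-null cells without and with glutamine and WT cells without and with it. Of the 20 regulatory members, the most abundant was Psmc6 in both p53-null groups (146 RPKM without glutamine and 128 RPKM with it), Psmc2 in WT cells without glutamine (172 RPKM) and Psmd2 in WT cells in complete medium (127 RPKM). Sem1, a small lid subunit that the name rule does not hold, was higher still. It averaged 150 and 154 RPKM in p53-null cells without and with glutamine, and 196 and 240 RPKM in WT cells without and with it. Together the 31 stable subunits made up 1.02 ± 0.007% of the RPKM sum in p53-null cells without glutamine, 0.934 ± 0.005% in p53-null cells in complete medium, 0.870 ± 0.003% in WT cells without glutamine and 0.820 ± 0.001% in WT cells in complete medium.

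Of 43 other genes of the pathway, 42 were in the table and 40 were tested. In WT cells without glutamine 27 of them rose, 10 fell and 3 did not pass the test (median 0.30), beside 46.0% of all tested genes higher, 44.0% lower and a median of 0.011. In p53-null cells 25 rose, 10 fell and 5 did not pass (median 0.16), beside 50.0% of all tested genes higher, 32.0% lower and a median of 0.083; the split was 20 to 14 under median centring and 21 to 14 under quantile normalization. The changes farthest from 0 in WT cells were those of Psme1 and Psme3, genes of alternative caps of the core particle. Psme3, the nuclear activator, had 124, 125 and 124 RPKM in WT samples without glutamine, against 29.3, 29.6 and 29.4 RPKM in complete medium (log2 change 2.04 ± 0.015, adjusted p = 2.8e-18). Psme1, a subunit of the interferon-inducible activator, had 5.02, 5.77 and 5.28 RPKM without glutamine, against 35.5, 36.8 and 37.2 RPKM in complete medium (-2.56 ± 0.043, adjusted p = 4.5e-15), and its partner Psme2 fell with it (-1.08 ± 0.019).

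In p53-null cells the activators moved the same ways by less, Psme3 by 0.49 ± 0.015 and Psme1 by -0.93 ± 0.043, and the responses differed for Psme1 (1.63, p53-null minus WT), Psme2 (0.97) and Psme3 (-1.55). The ratio of Psme3 to Psme1 was 3.84 ± 0.17 in p53-null cells without glutamine, 1.38 ± 0.075 in p53-null cells in complete medium, 23.3 ± 1.5 in WT cells without glutamine and 0.806 ± 0.018 in WT cells in complete medium (SD, n = 3 each). The inhibitor Psmf1 was higher in p53-null than in WT cells in complete medium (1.15 ± 0.028). Of the immunoproteasome genes, Psmb8 and Psmb9 were listed at 0 in all 6 p53-null samples and reached at most 0.437 and 0.728 RPKM in WT samples. Psmb10 had 4.36, 4.40 and 4.99 RPKM without glutamine, against 8.21, 7.89 and 7.04 RPKM in complete medium in p53-null cells (-0.64 ± 0.059), and 6.35, 6.80 and 7.22 RPKM without glutamine, against 9.07, 8.76 and 9.57 RPKM in complete medium in WT cells (-0.38 ± 0.059).

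The chaperones that build the core particle rose without glutamine. In WT cells 4 of 5 rose, with a median of 1.11, beside 46.0% of all tested genes higher. Pomp, which guides the beta ring, did not pass the test (-0.04 ± 0.019). Psmg3, which with Psmg4 seeds the alpha ring, had 36.5, 38.3 and 37.1 RPKM without glutamine, against 11.2, 10.5 and 11.4 RPKM in complete medium (1.67 ± 0.029, adjusted p = 7.0e-15). Psmg4 (1.13 ± 0.041) and Psmg2 (1.11 ± 0.041) rose as well. In p53-null cells all 5 rose, with a median of 0.26 (3 passed under quantile normalization and 4 under median centring), beside 50.0% of all tested genes higher. Psmg3 led (0.91 ± 0.029), and the response of Psmg4 was the most different between the lines (-1.01, p53-null minus WT).

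**Figure D5:**
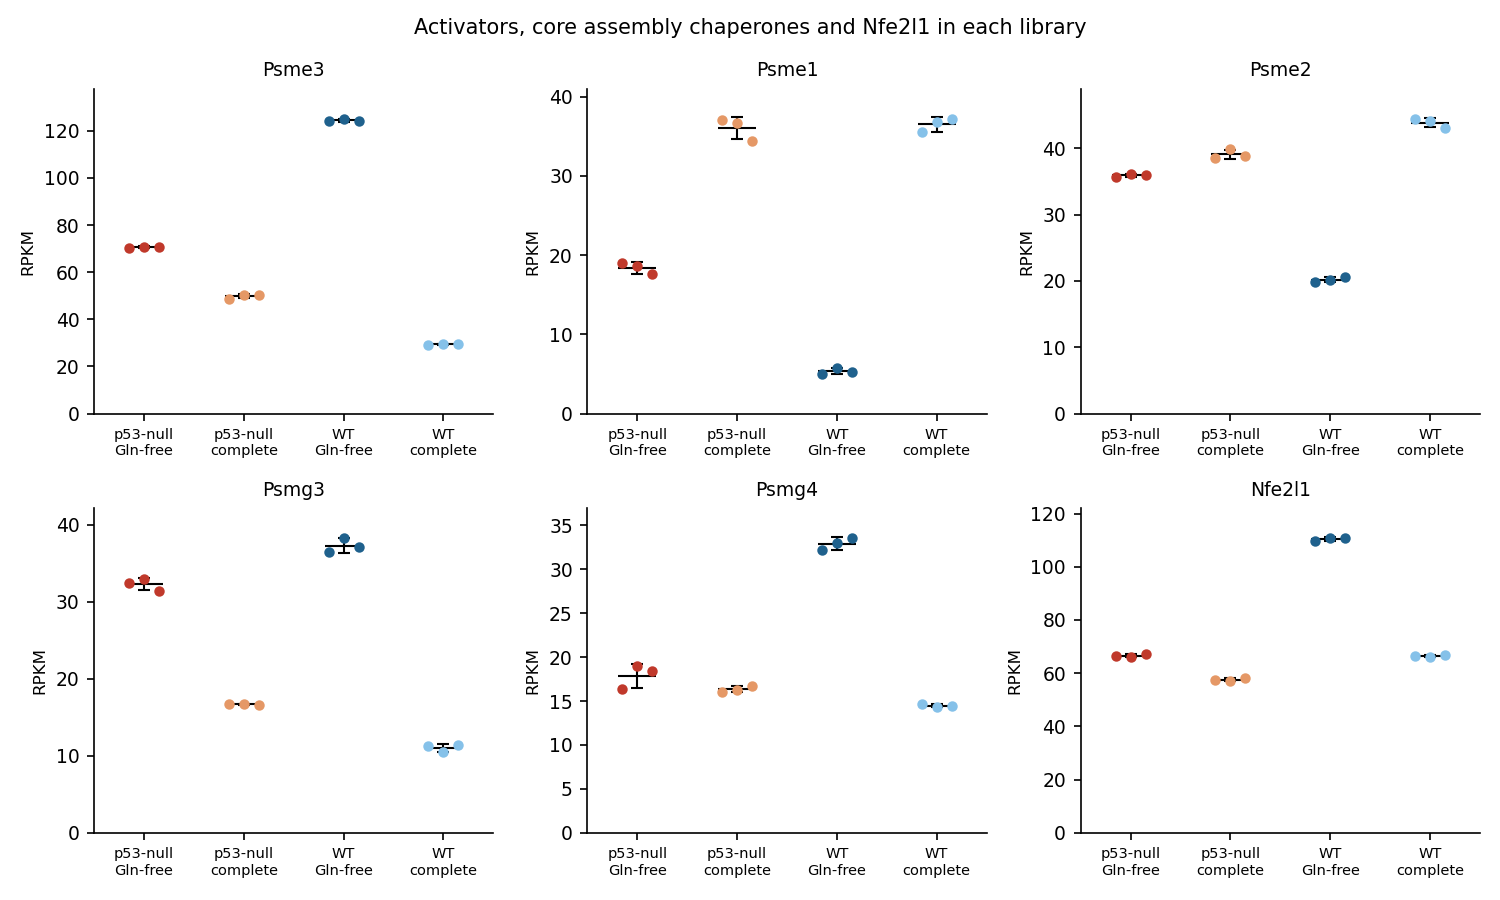
RPKM of the activators Psme3, Psme1 and Psme2, the core assembly chaperones Psmg3 and Psmg4 and the transcription factor Nfe2l1 in each library (points; bars are mean and SD of 3; Gln-free is the medium without glutamine). WT cells without glutamine have the highest Psme3 (124 RPKM) and Nfe2l1 (110 RPKM) and the lowest Psme1 (5.36 RPKM) of the 4 groups.

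Nfe2l1, the transcription factor of proteasome genes, had 66.5, 66.2 and 67.1 RPKM in p53-null samples without glutamine, against 57.5, 57.0 and 58.0 RPKM in p53-null samples in complete medium (0.21 ± 0.012), and 110, 111 and 111 RPKM in WT samples without glutamine, against 66.4, 65.9 and 66.8 RPKM in WT samples in complete medium (0.72 ± 0.012). Its response differed between the lines (-0.52, p53-null minus WT). Of its processing factors in WT cells, the protease Ddi2 rose (0.75 ± 0.026), and Vcp, the ATPase that extracts it from the endoplasmic reticulum (-0.72 ± 0.016), Ngly1 and Syvn1 fell. The related factor Nfe2l2 rose by 0.70 ± 0.028 in WT and by 0.23 ± 0.028 in p53-null cells, and differed between the responses by -0.46.

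Of 8 bound enzymes and adaptors, 6 rose and 1 fell in WT cells without glutamine, beside 46.0% of all tested genes higher and 44.0% lower. Zfand2a, an arsenite-inducible adaptor of the regulatory particle, rose the most, by 1.90 ± 0.037. It was also 2.58 ± 0.037 higher on the log2 scale in p53-null than in WT cells in complete medium, and its response was smaller in p53-null cells (-1.31). Adrm1, a ubiquitin receptor of the regulatory particle that the name rule does not hold, was higher in p53-null cells in complete medium (0.99 ± 0.034) and without glutamine (1.19 ± 0.034). The small lid subunit Sem1 fell in WT cells without glutamine (-0.29 ± 0.019).

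Rps27a, which encodes ubiquitin fused to a ribosomal protein, rose in WT cells without glutamine (0.59 ± 0.015), and the ubiquitin-activating enzyme Uba1 fell (-0.58 ± 0.011). In p53-null cells Rps27a fell (-0.071 ± 0.015), but turned to 0.22 under quantile normalization. The cofactor of Vcp Nploc4 rose by 0.83 ± 0.020 in WT and by 0.36 ± 0.020 in p53-null cells. Of the shuttle proteins that carry ubiquitinated substrates, Ubqln1 rose by 0.44 ± 0.017 in WT cells.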

How the data were processed

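RNA sequencing libraries (TruSeq V2 per the labels, a kit that does not mark strand, from 0.5 ug of total RNA) were made from 12 samples. The submitters' processing notes name CASAVA 1.8, HISAT2 2.0.4, Partek and the build mm10, without roles, order or annotation. The authors deposited 1 table of RPKM values; how reads shared between genes were counted is not stated. Read counts could not be recovered: low values (under 0.5 RPKM) gave a depth of 37.5 to 46.8 M reads from their spacing, yet whole reads within 0.05 made up 60.1 to 64.0% of them. Precision is therefore given as the SD over 3 samples for levels and ratios, and as the SE of the limma fit for changes. The number of 3 samples per group limits both.

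From the deposited RPKM values, log2(RPKM + 1) was fitted with limma 3.58.1 in R 4.3.3 on all 12 samples (4 group means, mean-variance trend, genes that reached 1 RPKM in 3 or more samples), with 5 comparisons and Benjamini-Hochberg adjustment over 11461 genes. An exact permutation test of 3 against 3 samples cannot give a p under 0.1 and was not used. The fit was tested on simulated data. The members, gene lists and alternatives were chosen with earlier results of these data known, and the 1.5-fold count was added after the data were seen.

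Per-sample values are given for the core and regulatory members with the largest rise and fall among called members in each comparison, for Psmb5, Psmb6, Psmb7 and Psmd14, for members below the filter, and for the ATPase genes with the largest changes, which were added. Of the other pathway genes, Psmb8, Psmb9, Psmb10, Nfe2l1 and the called gene with the largest change of a list are named, with some of their partners, also added; some pathway genes are not reported here. Coordinates, overlaps and near-identical copies (95% identity or more over the longest transcript, by BLAST) come from GENCODE M21. Alternatives were other pseudocounts, filters, scalings and fits, a replicate block, and leaving out each sample.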

Additional observations from a re-analysis of the deposited data

Results flagged for a closer look

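In 59 of the members and other pathway genes, the response to the glutamine-free medium differed between the lines by the limma test of the difference itself. All values are log2 differences, the p53-null response minus the WT response, with 3 samples per group, and why they differ was not tested. In the regulatory particle the response of p53-null cells was more negative for Psmc2 (-0.98), Psmc5 (-0.87), Psmc4 (-0.85), Psmd14 (-0.58), Psmc6 (-0.50) and Psmc1 (-0.42). It was more positive for Psmd4 (0.62), Psmd13 (0.60), Psmd8 (0.57), Psmd1 (0.48), Psmd10 (0.45), Psmd3 (0.39), Psmd11 (0.32), Psmc3 (0.28), Psmd6 (0.22) and Psmd2 (0.12). In the core it was more positive for Psmb6 (0.64), Psma5 (0.57), Psma1 (0.44), Psma6 (0.34), Psmb1 (0.20), Psmb4 (0.15), Psma7 (0.14) and Psma2 (0.14). It was more negative there for Psma4 (-0.33), Psmb7 (-0.10), Psmb2 (-0.10) and Psma3 (-0.072).

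Among the other pathway genes, the response of p53-null cells was more positive for Psme1 (1.63), Psme2 (0.97), Uchl5 (0.43), Vcp (0.41), Syvn1 (0.37), Pomp (0.30), Uba1 (0.29), Zfand5 (0.28), Sem1 (0.25), Adrm1 (0.19) and Uba6 (0.16). It was more negative for Psme3 (-1.55), Zfand2a (-1.31), Psmg4 (-1.01), Psmg3 (-0.76), Rps27a (-0.67), Psmg2 (-0.59), Ubb (-0.52), Nfe2l1 (-0.52), Ube3c (-0.52), Nfe2l2 (-0.46), Nploc4 (-0.46), Ube3a (-0.43), Ubqln2 (-0.39), Usp14 (-0.29), Psmb10 (-0.26), Txnl1 (-0.18), Ddi2 (-0.11), Ubqln1 (-0.11), Psme4 (-0.089) and Ecpas (-0.069). Against this stands the background of 46.4% of all tested genes with a more positive and 38.4% with a more negative response.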

How the results depend on the processing

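The rise of the ATPase ring in WT cells without glutamine kept its direction under every alternative run, with a median of 0.77 under quantile normalization and 0.87 with one RPKM sum. Pseudocount 0.1, a filter of 5 RPKM, no variance trend and a fit of only the groups compared moved no count of the particles by over 1.5 times and no median by more than 1 SD. Without a filter the core median was -0.026 for the WT medium comparison and 0.10 between the lines in complete medium. The values gave no sign that sample numbers pair the groups: over 18 same-numbered pairs, deviations from the group means correlated at -0.106 to 0.088. With 3 samples per group, this cannot show that same-numbered samples were handled apart. The replicate block left the WT ATPase median at 0.89, and changed 3 of 170 member calls and the sign of 0. Leaving out 1 sample moved 1 summary: core members at least 1.5-fold lower in p53-null cells in complete medium numbered 1 to 2, with 2 without p53-null complete sample 2.

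Scaling mattered for small changes, and the cause was not tested. Quantile normalization gave medians, WT medium, of -0.131 (core) and -0.070 (regulatory), a regulatory median of 0.12 for p53-null medium, and medians between the lines of 0.21 (core), 0.15 (regulatory) and 0.59 (ATPase) in complete medium and 0.28, 0.12 and 0.045 without glutamine. Between the lines it left 1 regulatory member 1.5-fold lower in complete medium, and without glutamine 2 core members lower and 6 core and 5 regulatory members 1.5-fold higher. With one RPKM sum the regulatory median for p53-null medium was 0.19, and between the lines medians were 0.25, 0.22 and 0.59 in complete medium and 0.25, 0.18 and 0.0073 without glutamine. That scaling gave 5 regulatory members lower in either medium, 0 at 1.5-fold lower in complete medium, 5 at 1.5-fold higher without glutamine, and 1 core member with a more negative response. Median centring gave p53-null medium medians of -0.021, 0.058 and 0.11, with 4 core members higher, 6 lower and 10 regulatory members higher. Between the lines its medians were 0.11, 0.085 and 0.45 in complete medium, with 1 core member 1.5-fold higher and 2 lower, and -0.028, -0.10 and -0.28 without glutamine, with 2 regulatory members 1.5-fold lower. It left 5 core members with a more positive response.

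Turned signs were looked up for every member in WT medium and in the difference of responses, and for a chosen set of members elsewhere. Further members may have turned: in p53-null medium under median centring, 3 alpha genes rose and 3 fell, and 1 beta gene rose and 3 fell. Among those looked up, with Nfe2l1 and Nfe2l2, single called changes that turned sign were Psmc1 in p53-null medium (-0.030, median centring), Nfe2l2 between the lines in complete medium (0.0070, one RPKM sum), and Psmb7 in the difference of responses (0.10, quantile normalization). Between the lines without glutamine they were Psmb5 (-0.029, median centring), Psmc1 (0.080, quantile normalization, and 0.047, one RPKM sum), Psmc6 (0.0094, quantile normalization) and Psmd14 (0.044, quantile normalization, and 0.0095, one RPKM sum). Of 169 called changes of the other pathway genes (Nfe2l1 and Nfe2l2 included) over the 5 comparisons, 10 in 9 genes turned sign under another scaling, among them Rps27a under quantile normalization, to 0.22 in p53-null medium and 0.20 between the lines without glutamine.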
